A study of Mus musculus with 6 samples.

Results

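The major histocompatibility complex (MHC) class I pathway displays peptides from inside a cell on its surface for inspection by cytotoxic T cells. Described here are 10 of its genes, H2-K1, H2-D1, B2m, Tap1, Tap2, Tapbp, Psmb8, Psmb9, Psmb10 and Nlrc5, out of 18193 genes that the array annotation names. They were chosen by name, with earlier results of these data known. Every probe set that the annotation pairs with exactly 1 of these genes was taken, which gave 27 probe sets. A further 3 probe sets are paired with a member together with other genes and were not used.

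The cells were Ba/F3-N, a mouse bone marrow line of pro-B origin made from Ba/F3 by transformation with NRAS-G12D, an oncogenic form of the small GTPase NRAS. Both groups carry NRAS-G12D, so no untransformed cells serve as a control, and the labels do not say whether the line is a single clone. In 1 group of 3 samples the cells received 1 µM N-arachidonoyl dopamine (NADA), a conjugate of arachidonic acid and dopamine, and in the other group of 3 an equal volume of vehicle, and all were collected after 12 hours. RNA of each sample went onto 1 Affymetrix Mouse Genome 430 2.0 array. Nothing in the labels says that the samples are separate cultures. The p-values therefore rest on the spread among these samples, and that spread may be technical.

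Proteasomes cut proteins into peptides, and cells under interferon build an immunoproteasome in which the catalytic subunits encoded by Psmb8, Psmb9 and Psmb10 replace the constitutive Psmb5, Psmb6 and Psmb7 products. The transporter formed by TAP1 and TAP2 moves peptides into the endoplasmic reticulum, where tapasin (Tapbp) holds the transporter next to an empty class I heavy chain (H2-K1, H2-D1) bound to beta-2-microglobulin (B2m). NLRC5 is a transactivator that acts on class I promoters through a module of short elements including an X2 element and a Y box. Upstream of that module, class I promoters carry a kB site, bound by NF-kB, and an interferon-stimulated response element, bound by IRF and STAT factors.

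Matches to such elements are shown for the class I chains, where they lie close together, and for Tap1 and Psmb9, which share 1 upstream region but differ in their values. Sequences are from RefSeq, build GRCm38.p6, written 5′ to 3′, with motif matches in capitals. They are reference sequences, and whether Ba/F3-N cells carry the same bases was not tested. The 250 bases upstream of the H2-D1 start (chr17:35262844-35263093, plus strand) hold, in this order, a kB match, a response element match, a match to the X2 letters TGACG and a pair of matches to the Y box letters CCAAT, of opposite orientation. Whether either of that pair acts as a Y box was not tested.
H2-D1 upstream: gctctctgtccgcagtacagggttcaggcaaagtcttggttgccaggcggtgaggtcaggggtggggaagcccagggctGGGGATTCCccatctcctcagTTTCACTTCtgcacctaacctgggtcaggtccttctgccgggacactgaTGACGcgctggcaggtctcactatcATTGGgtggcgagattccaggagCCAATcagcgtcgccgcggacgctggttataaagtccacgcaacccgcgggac

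H2-K1 (chr17:34000429-34000458, minus strand) and H2-D1 (chr17:35262923-35262952, plus strand) share the kB and response element segment, with 29 of 30 bases identical. Both segments were found with the same search pattern, which fixed the motif letters and their spacing, so only the other bases could differ freely. B2m (chr2:122147548-122147570, plus strand) holds the elements in the other order, with the wider spacing of each. The printed H2-K1 segment overlaps the annotated H2-K1 gene, and the B2m segment overlaps the gene Patl2.
H2-K1: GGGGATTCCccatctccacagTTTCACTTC
H2-D1: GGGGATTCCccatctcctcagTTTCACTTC
B2m: GAAACTGAAAatgGGAAAGTCCC

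Tap1 and Psmb9 are transcribed away from each other from starts only 225 bases apart (chr17:34187331-34187555, shown on the strand of Tap1). The match to the Y box letters lies at the Psmb9 end and the match to the X2 letters nearer to Tap1. Counted from the Tap1 start, they lie at -222 to -218 and at -86 to -82. Counted from the H2-D1 start, the X2 letters lie at -101 to -97 and the nearer Y box match at -76 to -72. The matches are thus farther apart at Tap1 than at H2-D1.
Tap1 to Psmb9: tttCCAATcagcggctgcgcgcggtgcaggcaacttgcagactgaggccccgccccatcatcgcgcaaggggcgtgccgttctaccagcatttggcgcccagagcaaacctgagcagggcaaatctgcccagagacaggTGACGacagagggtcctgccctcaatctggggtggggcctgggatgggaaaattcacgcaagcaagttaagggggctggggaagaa

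Motifs were searched on both strands in the 250 upstream bases, and 8 of the 10 genes had such a sequence, all but Tap2 and Nlrc5. The response element was searched as GAAA and GAAA with 2 bases between, found in B2m and in 2.98% of 32851 promoters of the same length, and as GAANNGAAA, found in H2-K1 and H2-D1 and in 6.31%. The kB site was searched as GGGNNTTCC, found in H2-K1 and H2-D1 and in 4.98%, and as GGG and TTCC with 3 bases between, found in B2m and in 4.65%. The X2 element TGACG was found in 5 of the 8 (B2m, H2-K1, H2-D1, Tap1 and Psmb9) and in 17.8% of promoters, and the Y box CCAAT in those 5 and Tapbp and in 33.8%. The interferon-gamma type element TTCNNNGAA was found in Psmb8 and in 7.02%, and the Psmb10 window held none of these letters. The Tap1 and Psmb9 windows overlap, so their matches are the same bases. A match describes the letters only.

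NADA-treated cells had higher signals than vehicle cells for the peptide transporter, tapasin, the class I chains and Nlrc5, little difference for Psmb8 and Psmb9, and a lower signal for Psmb10. With the values as deposited, 9 of the 10 genes rose and 1 fell, whereas scaling to added control RNAs, given next, turned 4 of the 9 negative (limma, Benjamini-Hochberg adjusted p under 0.05 over 10520 genes tested). Calls were common on these arrays: 35.9% of all genes tested were called higher and 37.6% lower, and a minimum change of 1.5-fold left 13.1% higher and 15.9% lower, against 5 and 1 of the 10 genes. The median log2 difference, NADA minus vehicle, was 0.62 over the 10 genes and 0.01 over all genes tested. All 10 passed the limit on dim signals (a mean intensity of 39.01 over the 6 arrays), and none did so only through its NADA arrays. The NADA and vehicle values did not overlap for any of the 10, against 76.0% of all genes (37.2% apart with NADA higher and 38.8% with NADA lower).

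These differences are relative to the bulk of genes on the array. Poly-A control RNAs of bacterial sequence, which are added to the sample RNA, averaged 8.72 ± 0.21 on the log2 intensity scale over the NADA arrays (SD, n = 3) and 8.14 ± 0.01 over the vehicle arrays. When each array was scaled to them, the median log2 difference of all genes moved from 0.01 to -0.57. On that scale Tap1, Tap2 and H2-D1 rose (7.04% of all genes did), Psmb8, Psmb9 and Psmb10 fell (76.0% did), and H2-K1, B2m, Tapbp and Nlrc5 were not called. Differences between genes within an array are the same under both scalings. The log2 ratio of the 3′ to the 5′ probe set of Actb, a sign of RNA and labelling quality, was 1.06 ± 0.05 in NADA and 0.67 ± 0.04 in vehicle. For Gapdh this ratio was -0.07 ± 0.06 in NADA and -0.22 ± 0.03 in vehicle, a smaller difference. The poly-A signal and both ratios differed between the treatment groups, and their part in the values of the 10 genes was not tested.

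**Figure D1:**
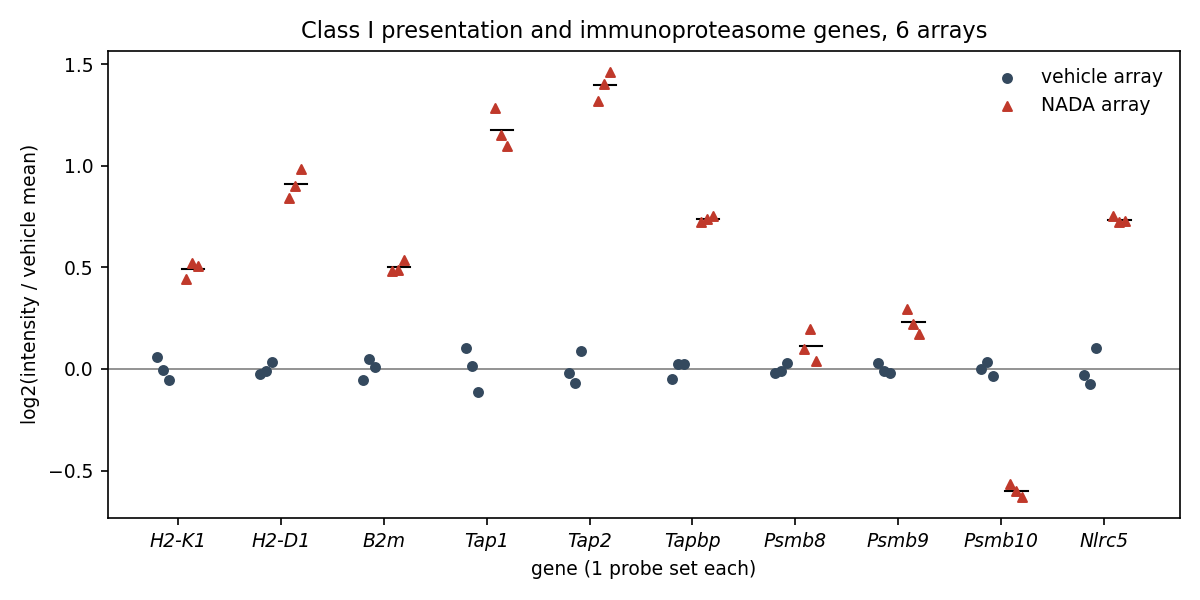
Log2 intensity of each gene on each array minus the mean of its vehicle arrays (vertical axis), for the probe set used for the gene. Circles are the 3 vehicle arrays, triangles the 3 NADA arrays and the bar their mean. NADA arrays lie above the vehicle arrays for 9 genes, least for Psmb8, and below them for Psmb10, with the values as deposited; scaled to the poly-A controls, H2-K1, B2m, Psmb8 and Psmb9 turn negative.

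Both peptide transporter genes rose, and Tap2 had the highest log2 difference of the 10 in the probe sets kept. Tap2 gave intensities of 562, 595 and 619.7 in the NADA arrays and 222, 215 and 239 in the vehicle arrays. All 3 NADA values were far above all 3 vehicle values, and the log2 difference was 1.40 ± 0.05 (standard error of the fit, adjusted p = 9.5e-13), a 2.63-fold rise. Tap1 gave 518, 473 and 456 in NADA and 229, 215 and 197 in vehicle. The groups stood far apart, with a log2 difference of 1.18 ± 0.06 (adjusted p = 4.43e-11), or 2.26-fold. Only 223 of the 10520 genes had a higher log2 difference than Tap2, and 347 a higher one than Tap1. Tap1 has 3 further probe sets, 1 with intensities between 40.9 and 48.8 that was not called (0.13 ± 0.09) and a pair under the dim limit. With the Tap1 probe sets above the dim limit averaged, its log2 difference was 0.66 (adjusted p = 5.3e-08), below that of Nlrc5, so the place of Tap1 among the 10 rests on the probe set kept. Tap2 has 1 probe set.

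Tapasin and the transactivator had nearly the same log2 difference. Tapbp gave 472, 476 and 482 in NADA and 276, 291 and 290.4 in vehicle. The NADA arrays lay close together and well above the vehicle arrays, by 0.74 ± 0.04 on the log2 scale (adjusted p = 2.55e-10, 1.67-fold). A second Tapbp probe set was also higher, by 0.40 ± 0.09. Nlrc5 gave 511, 499.8 and 501 in NADA and 296, 288 and 326 in vehicle. Again no NADA value came near the vehicle values, and the log2 difference was 0.73 ± 0.05 (adjusted p = 1.33e-09, 1.66-fold), from a single probe set.

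Both class I heavy chain genes rose, H2-D1 more than H2-K1 in the probe sets used. H2-D1 gave 3046, 3171 and 3359 in NADA and 1669, 1685 and 1740.0 in vehicle. Every NADA value was far above every vehicle value, with a log2 difference of 0.91 ± 0.04 (adjusted p = 1.66e-12, 1.88-fold). H2-K1 gave 226, 239 and 236 in NADA and 173, 166 and 160.0 in vehicle. Its groups were also apart, by 0.49 ± 0.05 (adjusted p = 4.3e-07, 1.41-fold).

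The 2 genes are near copies of each other and of other class I genes, and 11 of their 13 probe sets are of the x type, which can bind several transcripts, so that signal cannot be assigned to 1 heavy chain with certainty. Each of the 13 was tested in a fit of all 45037 probe sets that are no controls, in which 20.0% were called higher and 19.8% lower. Of the 13, 11 were higher, by 0.34 to 0.91 on the log2 scale, and 2 of H2-D1, both under the dim limit, were not called. All 4 probe sets of H2-K1 were called, between 0.34 and 0.60, and the H2-D1 probe sets that were called lay between 0.45 and 0.91. These ranges overlap, so the larger rise of H2-D1 rests on the probe set kept for it, the brightest of its 9.

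B2m, the light chain shared by all classical class I molecules, gave 9301, 9331 and 9639 in NADA and 6401, 6882 and 6687 in vehicle. The groups were apart and the log2 difference was 0.50 ± 0.03 (adjusted p = 1.07e-10, 1.42-fold). Its second probe set gave 7123, 7274 and 7138 in NADA and 4957, 4924 and 4882 in vehicle, a difference of 0.54 ± 0.02.

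The immunoproteasome genes moved little or downward. Psmb9 gave 1215, 1155 and 1115 in NADA and 1012, 985 and 975 in vehicle. The groups did not overlap but lay close, 0.23 ± 0.04 apart on the log2 scale (adjusted p = 5.64e-05, 1.17-fold). Psmb8 gave 1577, 1693 and 1517 in NADA and 1453, 1466 and 1507 in vehicle. The lowest NADA array was barely above the highest vehicle array, and the log2 difference was 0.11 ± 0.04 (adjusted p = 0.0186, 1.08-fold). This call was lost with each array centred on its median (0.08, adjusted p = 0.106) and without NADA replicate 2 (0.07, adjusted p = 0.141), vehicle replicate 1 (0.10, adjusted p = 0.0676) or vehicle replicate 2 (0.11, adjusted p = 0.0582). The second Psmb8 probe set lay near the dim limit and was not called (0.19 ± 0.14).

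Psmb10 went the other way. It gave 354, 346 and 339 in NADA and 524, 536 and 512 in vehicle. Every NADA array was below every vehicle array, the log2 difference was -0.60 ± 0.04 (adjusted p = 2.41e-09), and the signal was 1.51-fold higher in vehicle. Of all genes tested, 15.5% had a lower log2 difference than Psmb10, against 61.3% for Psmb8 and 71.0% for Psmb9. The other 7 genes lay higher in this ranking, from 83.8% for H2-K1 to 97.9% for Tap2.

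**Figure D2:**
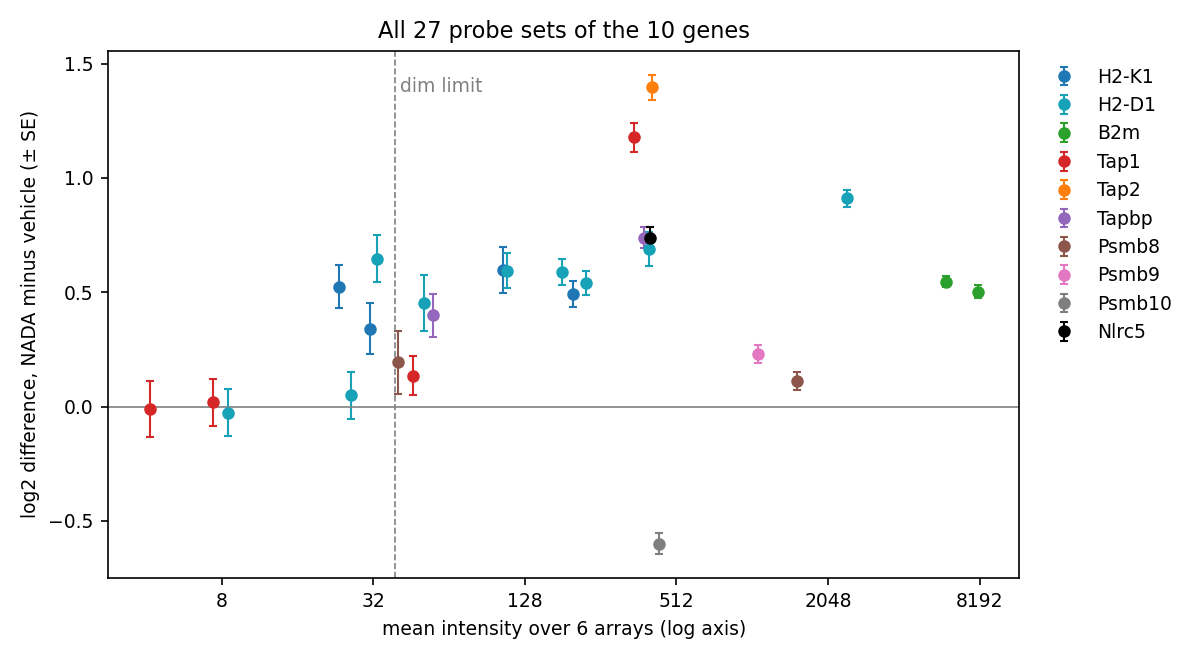
Log2 difference, NADA minus vehicle, with its standard error (vertical axis) against the mean intensity over the 6 arrays (horizontal log axis) for the 27 probe sets of the 10 genes, coloured by gene. The dashed line is the dim limit of 39.01. Of the 20 probe sets above it, 17 were called higher, 1 (Psmb10) lower and 2 were not called; of the 7 below it, 3 were called higher and 4 were not, with the values as deposited.

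In order of the log2 difference the genes ran Tap2, Tap1, H2-D1, Tapbp, Nlrc5, B2m, H2-K1, Psmb9, Psmb8 and Psmb10. For neighbours in this order the log2 ratio of the pair was taken within each array. The pairs came from sorting these same values, which fixed the direction of each change, so these ratios carry no test. The ratio separated NADA from vehicle arrays for H2-D1 with Tapbp, Nlrc5 with B2m, H2-K1 with Psmb9, and Psmb8 with Psmb10. It overlapped between groups for Tap2 with Tap1 (changed by 0.22), Tap1 with H2-D1 (0.27), Tapbp with Nlrc5 (0.00), B2m with H2-K1 (0.01) and Psmb9 with Psmb8 (0.12), so the order within those 5 pairs is not settled by these arrays. The place of H2-D1 rests on the probe set kept for it. Another H2-D1 probe set above the dim limit, not of the x type, gave 0.59 ± 0.08, below Tapbp (0.74). With probe sets above the dim limit averaged, H2-D1 (0.63) lay above Tapbp (0.57) but below Nlrc5 (0.735).

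Each immunoproteasome subunit was set against the constitutive subunit whose place it takes. Psmb5 gave 1532, 1539 and 1489 in NADA and 1912, 1939 and 1915 in vehicle, and fell by 0.34 on the log2 scale (standard error 0.03, adjusted p = 4.75e-08). The log2 ratio of Psmb8 to Psmb5 was higher in each NADA array (0.04, 0.14 and 0.03) than in any vehicle array (-0.40, -0.40 and -0.35), a change of 0.45. For Psmb10 and Psmb7 the ratio was lower in NADA, by 0.60 on the log2 scale (-1.11, -1.16 and -1.20 against -0.52, -0.53 and -0.61), with Psmb7 itself at 763, 769.98 and 777 in NADA and 753, 775 and 779 in vehicle. For Psmb9 and Psmb6 the ratio overlapped between groups and changed by 0.08, and Psmb6 rose by 0.15 ± 0.03 (adjusted p = 4.08e-04; -0.42 scaled to the poly-A controls). The two-sided exact permutation test over the 6 arrays gave p = 0.1 for the first and the third pair, the smallest that 3 against 3 arrays allow, and p = 0.2 for Psmb9 with Psmb6. In every NADA array, the ratio of Psmb8 to Psmb5 was higher, and that of Psmb10 to Psmb7 lower, than in any vehicle array. Most of the change of 0.45 was the fall of Psmb5 by 0.34, as Psmb8 itself differed by 0.11. Groups that do not overlap were common, at 76.0% of single genes. How often the ratio of other gene pairs separates the groups was not tested.

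**Figure D3:**
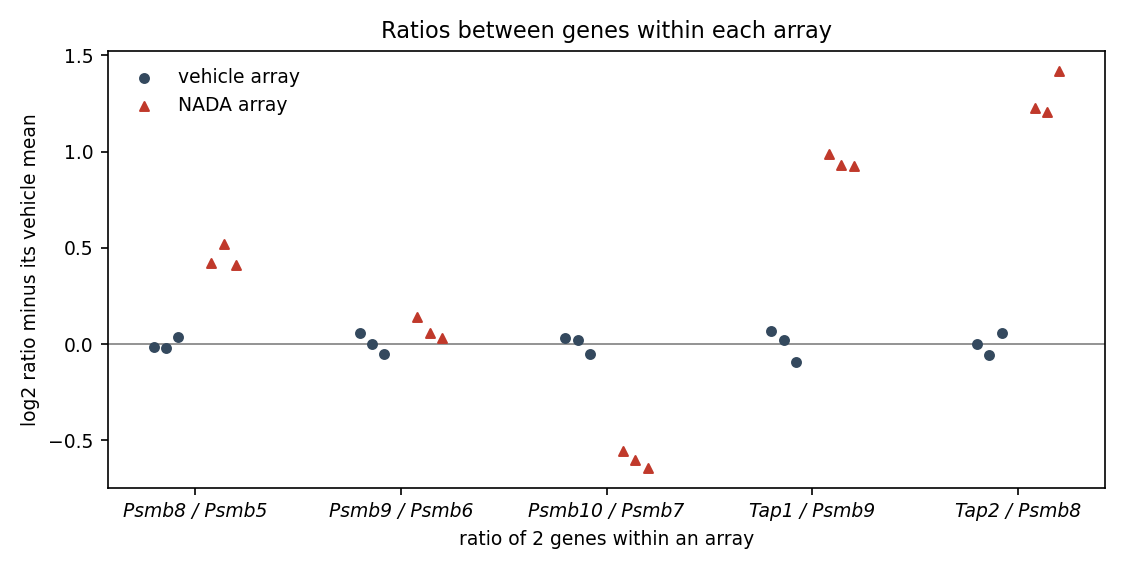
Log2 ratio of 2 genes within an array, minus its mean over the vehicle arrays (vertical axis), for 5 gene pairs; circles are vehicle arrays and triangles NADA arrays. Scaling the arrays does not move these ratios. The NADA arrays lie above the vehicle arrays for Psmb8 with Psmb5, Tap1 with Psmb9 and Tap2 with Psmb8, below them for Psmb10 with Psmb7, and overlap them for Psmb9 with Psmb6.

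Tap1, Tap2, Psmb8 and Psmb9 are next to each other on chromosome 17, in the order Psmb9, Tap1, Psmb8, Tap2, with no other protein-coding gene among them in RefSeq. The log2 differences alternated along this row: 0.23 for Psmb9, 1.18 for Tap1, 0.11 for Psmb8 and 1.40 for Tap2. Tap1 and Psmb9 share the 225 bases between their starts printed above. The log2 ratio of Tap1 to Psmb9 was -1.23, -1.29 and -1.29 in NADA and -2.15, -2.20 and -2.31 in vehicle. It thus differed by 0.95 between groups that did not overlap, and that of Tap2 to Psmb8 by 1.28. Both pairs were picked with their values known and carry no test, and the first rests on the probe set kept for Tap1, whose averaged value was 0.66. Of the genes beyond Psmb9, H2-Oa rose by 1.04 ± 0.10 (adjusted p = 1.28e-07), H2-DMa was not called (0.05 ± 0.08) and H2-DMb2 was dim, while Brd2, a chromatin reader gene in that stretch, differed by 0.30 ± 0.04. Beyond Tap2, H2-Ob, named after its values were seen, was under the dim limit. Its mean intensity was 37.4 in NADA and 9.03 in vehicle, a difference of 2.04 ± 0.14 in the fit of all probe sets.

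**Figure D4:**
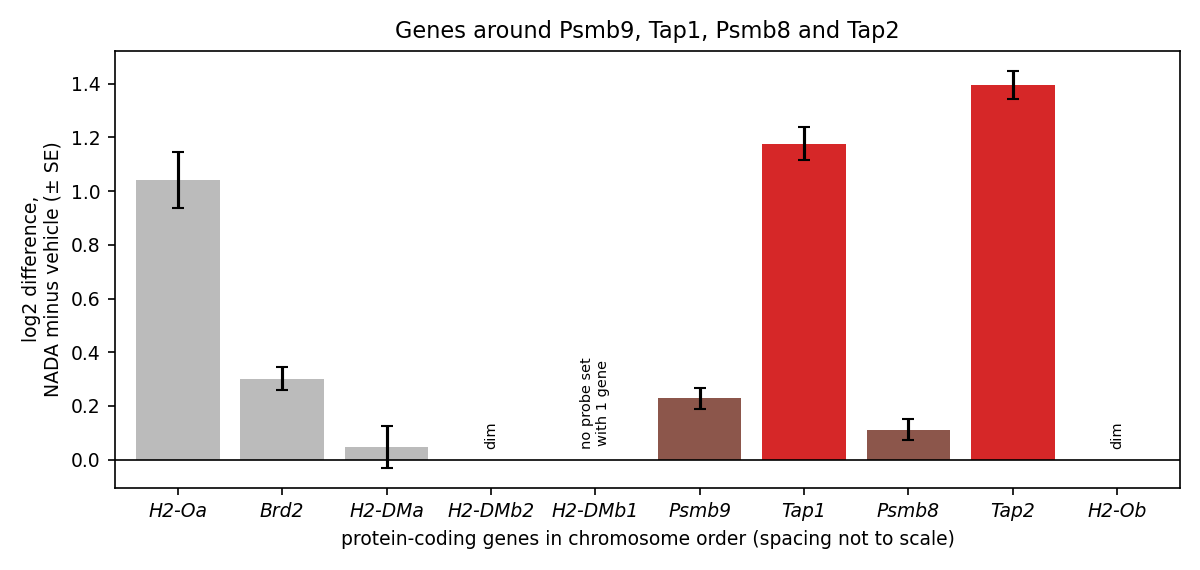
Log2 difference, NADA minus vehicle, with its standard error (bars, vertical axis) for protein-coding genes in their order on chromosome 17 (horizontal axis, spacing not to scale). Transporter genes are red, immunoproteasome genes brown and other genes grey; H2-DMb2 and H2-Ob were dim and H2-DMb1 has no probe set paired with it alone. The bars of Tap1 (1.18) and Tap2 (1.40) stand beside those of Psmb9 (0.23) and Psmb8 (0.11), with the values as deposited; scaled to the poly-A controls the last pair is negative.

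Other heavy chains were mostly below the dim limit. Of 23 class I and class I-like genes listed, 11 had a probe set of their own and 4 were tested, of which 2 rose and 0 fell (median 0.52; scaled to the poly-A controls, 2 rose and 2 fell). With no dim filter 3 of the 11 rose and 2 fell, the additions being H2-T24 (1.29 ± 0.11) and, lower, Hfe (-0.24 ± 0.09) and Fcgrt (-0.41 ± 0.09), all named after their values were seen. With a stricter dim filter, at the 70th percentile, 1 rose. Mr1, which presents vitamin metabolites, gave 119, 110.2 and 99.3 in NADA and 33.2, 29.2 and 38.2 in vehicle, a difference of 1.71 ± 0.10 (adjusted p = 1.53e-10), and it passed the dim limit only through its NADA arrays. H2-M3, which presents formylated peptides, differed by 0.95 ± 0.06, while H2-T3 (0.09 ± 0.08) and H2-Q5 (0.03 ± 0.09) were not called.

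Genes that trim peptides and fold class I molecules moved in both directions. Of 17 tested, 11 rose and 5 fell with the values as deposited (median 0.26), and 0 rose and 8 fell after scaling to the poly-A controls. Calreticulin (Calr), a chaperone of the peptide loading complex, rose by 0.53 ± 0.03, the translocon subunit Sec61a1 by 0.56 ± 0.03 and the aminopeptidase Npepps by 0.60 ± 0.04, which became -0.04, -0.02 and 0.03 under that scaling. Thop1, a cytosolic peptidase that destroys peptides, fell from a mean intensity of 241 to 70.6, a log2 difference of -1.77 ± 0.06 (adjusted p = 1.96e-13). Erap1, which trims peptides in the endoplasmic reticulum and is named after its values were seen, fell by 0.88 on the log2 scale (adjusted p = 4.63e-09).

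Proteasome genes outside the 10 did not share a direction. Of 14 constitutive core subunits 8 rose and 1, Psmb5, fell (median 0.09; 2 fell with each array centred on its median), led in p by Psmb1 (0.43 ± 0.03), Psma5 (0.40 ± 0.04), Psmb5 and Psma1 (0.29 ± 0.03); scaled to the poly-A controls 0 rose and 12 fell. Of 9 activators and assembly factors 1 rose and 6 fell (median -0.81), and after that scaling 0 rose and 8 fell. The assembly chaperones Psmg1 and Psmg2 fell by 1.19 and 1.07 on the log2 scale, and Psme3, the nuclear activator PA28 gamma, had a log2 difference of -1.83. Psme4 rose by 0.67 ± 0.04, and Psme1, a subunit of the interferon-induced activator PA28, was not called (-0.06 ± 0.03, adjusted p = 0.131). Psme2, its partner, has no probe set paired with it alone. Pomp, a proteasome assembly factor named after its values were seen, fell by 0.22 on the log2 scale.

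The classical class II chains were near or under the dim limit. Of 11 with a probe set 6 were tested and 3 rose, 0 fell (median 0.23; after scaling to the poly-A controls 1 rose and 3 fell). With no dim filter 4 rose and 0 fell. The chains H2-Aa and H2-Ab1, named after their values were seen, had mean intensities between 16.2 and 18.3 in both groups, and Ciita, the class II counterpart of Nlrc5, 30.4 in NADA and 32.9 in vehicle, all under the dim limit. Cathepsin S (Ctss) differed by 0.61 ± 0.05 (0.03 under that scaling) and H2-Oa, which restrains class II peptide loading, by 1.04 ± 0.10 (0.46). H2-Eb2 differed by 0.31 ± 0.10 (-0.27 under that scaling), with values that overlapped between the groups. The invariant chain gene Cd74 was not called (0.16 ± 0.07, adjusted p = 0.0708).

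Among 24 tested genes of interferon signalling and of the factors that bind class I promoters, 14 rose and 6 fell (median 0.46; after scaling to the poly-A controls 6 rose and 11 fell). Irf9, the DNA-binding part of the complex ISGF3, had a log2 difference of 2.38 ± 0.05 (mean intensity 552 in NADA and 106 in vehicle), its partner Stat2 1.80 ± 0.07, Stat3 1.02 ± 0.04 and the receptor chain Ifnar2 1.10 ± 0.04. Irf1, which acts on class I and immunoproteasome genes, rose by 0.85 ± 0.05. Rfx5, which binds the X box of class I and class II promoters, rose by 0.80 ± 0.06. Under that scaling the differences were 1.80 for Irf9, 1.23 for Stat2, 0.44 for Stat3, 0.52 for Ifnar2, 0.27 for Irf1 and 0.225 for Rfx5. The 3 subunits of the Y box factor NF-Y, named after their values were seen, were lower: Nfya by -0.21, Nfyb by -0.33 and Nfyc by -0.11.

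The line's identity and other cell types were checked by markers. Of 14 markers of pro-B and interleukin-3 dependent cells, 13 had a probe set. The 7 that passed the dim limit were Ptprc, Il3ra, Csf2rb, Csf2rb2, Cd79b, Spn and Igll1, whereas Cd79a, Vpreb1, Il7r, Ebf1, Pax5 and Kit were under it in both groups. The summed intensity of the list was 14129 to 14193 in NADA and 6395 to 6656 in vehicle. Most of it came from Ptprc (means 6449 in NADA and 4034.5 in vehicle), Csf2rb (3337 and 990) and Csf2rb2 (3574 and 703). In this list 5 genes were higher and 1, Spn (-0.25), lower, and Igll1 was not called (2 higher and 2 lower after scaling to the poly-A controls). The macrophage and dendritic cell list held 12 symbols, with Adgre1 also listed under its older symbol Emr1, and 10 of them had a probe set. Of these 4 passed, Adgre1, Cd68, Lyz2 and Csf1r, all 4 of which rose (1 rose and 1 fell after scaling to the poly-A controls). Their list summed to 893 to 938 in NADA and 550.1 to 573 in vehicle, with Itgax, Flt3, Cd14, Xcr1, Siglech and Mrc1 under the dim limit in both groups. T and NK cell markers summed to 233 to 239.8 and 219.5 to 239.6, with 1 of 2 tested higher (0 higher and 2 lower after that scaling), and stromal, epithelial and endothelial markers to 241.5 to 262 and 265 to 269.8, with 1 of 2 lower (2 of 2 after that scaling). In bulk samples a change in the share of a cell type and a change per cell cannot be told apart, and the part of these markers in the values of the 10 genes was not tested.

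**Figure D5:**
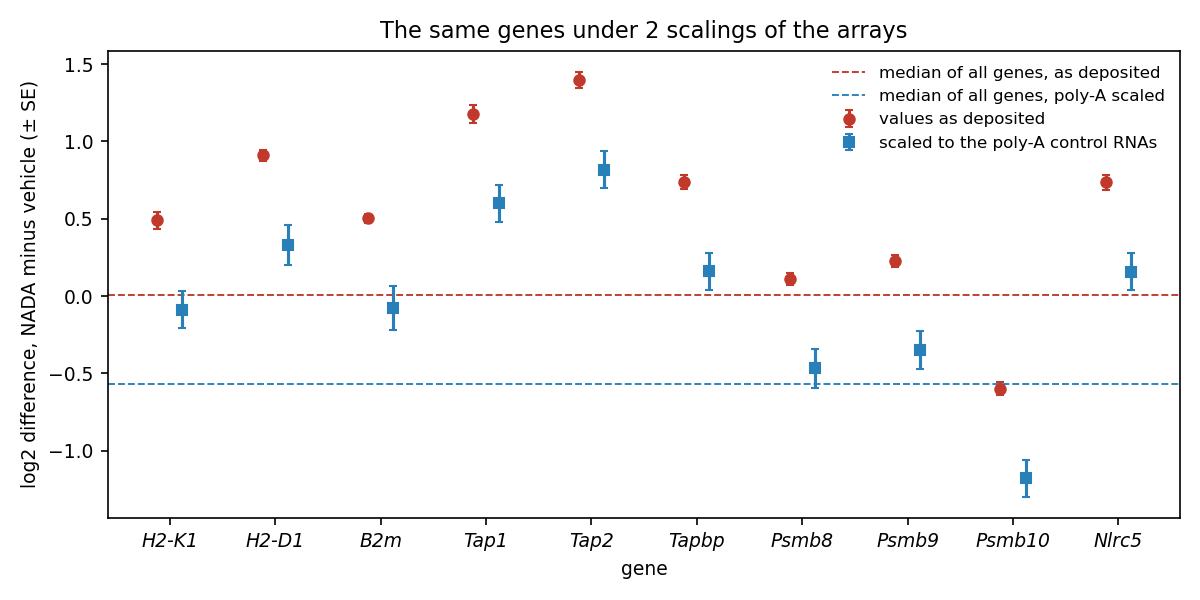
Log2 difference, NADA minus vehicle, with its standard error (vertical axis) for each gene, with the values as deposited (circles) and scaled to the poly-A control RNAs (squares). Dashed lines are the medians of all genes under each scaling, 0.01 and -0.57. The distance of a gene from its line is nearly the same under both: 9 genes lie above the median and Psmb10 below it.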

How the data were processed

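The authors' deposited table holds 1 intensity on a linear scale for each of 45101 probe sets on each of the 6 arrays, and the submitters' processing notes name MAS5 and RMA, with no version or role. The values were used as deposited after log2. Array medians lay between 37.95 and 39.11, and the number of arrays, 3 per group, limits the precision. The 64 control probe sets were left out, as were probe sets with several genes (932) or none (9160), and those whose mean over the arrays was below 39.01, the median of the non-control probe sets. The brightest probe set was kept per gene, which left 10520 genes. The fit was limma's lmFit, then eBayes with its trend option (limma 3.58.1, R 4.3.3). Tests had both sides, and a Benjamini-Hochberg adjusted value under 0.05 made a call. Rose and fell describe called genes only. Probe sets not kept for their gene are given from the same fit over all 45037 probe sets. The fit was tested on simulated data with independent normal noise for each gene kept. Few genes were changed in them and no shift common to an array was added. The simulation therefore does not cover arrays like these, where most genes were called. Plots were drawn with matplotlib 3.10.9.

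The members, lists, motifs and tests were chosen with earlier results of these data known. Named genes were all members, up to 4 of smallest p in each list, and Psmb5, Psmb6, Psmb7, Psme1, Psme2, Irf1, Rfx5 and Ciita, with 1 further gene not reported here; others are said to be named after their values were seen, except Brd2 and the H2-DM genes, named for their position, and cell type markers. Alternatives covered scaling, a pseudocount, a floor, the dim filter, the variance model, the joining of probe sets, the call rule, a block for the replicate number, and each array left out in turn.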

Additional observations from a re-analysis of the deposited data

How the results depend on the processing

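With a minimum of 1.5-fold, 5 of the 10 genes were called higher and 1 lower, and over all genes 1378 were higher and 1669 lower. Scaled to the poly-A controls, 3 of the 10 were higher and 3 lower, and over all genes 741 and 7992, against 3775 and 3958 as deposited. Under that scaling H2-K1 (-0.087), B2m (-0.076), Psmb8 (-0.47) and Psmb9 (-0.35) changed sign, and Tapbp (0.16) and Nlrc5 (0.16) were no longer called. By construction this scaling lowers the difference of every gene by 0.58. Leaving out each array gave 8 to 9 genes higher and 1 lower, with log2 differences of 1.36 to 1.44 for Tap2 and -0.62 to -0.58 for Psmb10. The Psmb8 call was also lost with a floor of 50 (0.11, adjusted p = 0.0722), without an intensity trend (0.11, adjusted p = 0.0718), with probe sets averaged (0.15, adjusted p = 0.0689) and at an adjusted p under 0.01. With the replicate number as a block 9 genes were higher and 1 lower, and over all genes 3789 and 3966, so the block changed no call among the 10. Same-numbered arrays deviated together at correlations of 0.16, -0.10 and 0.02, so the numbers were not taken to pair the samples. Signals near or under the dim limit, as in most other class I and class II genes, limit what can be seen there.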
